A study of Gallus gallus with 4 samples.

Results

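The yolk uptake genes LRP2, CUBN, AMN, DAB2, VLDLR, LRP1 and LRP8 were followed in RNA sequencing of the chick area vasculosa at 4 Hamburger-Hamilton stages. The members were taken by gene name, 7 of the 17012 genes in the deposited table. Of these, 6 stood under the same name, and VLDLR stood under its older symbol VLDL, which RefSeq lists as a synonym of VLDLR and of no other gene. All 7 passed a filter of 1 FPKM in at least 1 library, as did 11773 genes in all. FPKM are fragments scaled to transcript length and to library size, so levels of different genes can be compared per length.

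The groups were area vasculosa of Gallus gallus embryos at HH10, HH11, HH12 and HH13, and the labels name no treatment. The area vasculosa is the part of the yolk sac next to the embryo, where blood and vessels first appear. Each stage had 1 library, which leaves differences without a replicate check and values without a standard deviation. The sources used here give neither strain nor sex of the embryos, nor how many embryos were pooled.

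The endoderm cells of the avian yolk sac take up yolk from the side that faces it, digest it and pass nutrients on to the vessels. Uptake of this kind runs through receptors of the low density lipoprotein (LDL) receptor family and through cubilin, which gather in clathrin-coated pits, release their cargo in endosomes and return to the surface. LRP2 (megalin) and CUBN (cubilin) are large multiligand receptors, best known from the mammalian kidney tubule and the rodent visceral yolk sac. Cubilin has no membrane anchor of its own and reaches the surface with AMN (amnionless), and DAB2 is an adaptor that links receptor tails to clathrin. VLDLR is the receptor with which the growing hen oocyte takes up very low density lipoprotein and vitellogenin, LRP8 is its close relative and a receptor of reelin, and LRP1 is a broad scavenger receptor.

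The libraries differed in ways that touch these genes. Total FPKM lay between 762831 and 952203, and 10673 to 11308 of 17108 rows reached 1 FPKM. The number of reads is unknown, since FPKM keep no read count. Genes of chromosome Z, where DAB2 and VLDLR lie, were higher in the HH10 library. Over 536 Z genes the median log2 difference of HH11 against HH10 was -0.51, against 0.03 over 10611 genes on numbered chromosomes. HH13 against HH10 gave -0.47 and 0.02, while the 3 comparisons without HH10 gave Z medians within 0.03 of those of the numbered chromosomes. None of the 10 measured yolk sac endoderm markers, 10 endothelial markers or 8 erythroid markers was listed at 0 in any library. Some of the endothelial and erythroid ones lay under 1 FPKM in HH11.

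The 2 receptors of the megalin and cubilin system followed 1 course, lowest in HH11 and highest in HH13. LRP2 (ENSGALG00000010858, chromosome 7 at 18254209 to 18342504 of build galGal4) had 61.4 FPKM at HH10, 20.6 at HH11, 46.3 at HH12 and 104.7 at HH13. CUBN (ENSGALG00000008704, chromosome 2 at 19737380 to 19876287) had 43.8, 12.3, 27.5 and 83.3 FPKM in the same order of stages. Both were thus lowest in HH11, second lowest in HH12 and highest in HH13, with HH10 between HH12 and HH13. CUBN stayed below LRP2 in all 4 libraries, at 0.713, 0.597, 0.594 and 0.796 times its FPKM in stage order. By FPKM, LRP2 ranked 904 among the 11773 genes in HH13 and 4213 in HH11.

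AMN, the partner that carries cubilin to the surface, showed the widest range of the 7 genes. AMN (ENSGALG00000011391, chromosome 5 at 49791746 to 49808855) had 19.4 FPKM at HH10, 3.40 at HH11, 25.0 at HH12 and 71.4 at HH13, a 21.0-fold span of FPKM. Its HH11 value was low against the other 3 libraries, and its HH13 value stood above all of them. The FPKM ratio of AMN to CUBN was 0.442 at HH10, 0.276 at HH11, 0.910 at HH12 and 0.857 at HH13. Per length, the AMN transcript was therefore closer to the CUBN transcript in HH12 and HH13 than in HH10 and HH11.

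DAB2, the clathrin adaptor, had the same low and high points as these 3 genes. DAB2 (ENSGALG00000003803, chromosome Z at 12205815 to 12230277) had 34.3 FPKM at HH10, 16.5 at HH11, 36.3 at HH12 and 110.0 at HH13. Without correction for the higher level of Z genes in the HH10 library, HH10 and HH12 were close together. HH11 was the low library, and HH13 was the high one. DAB2 was below LRP2 in the first 3 libraries, at 0.558, 0.799 and 0.784 times its FPKM, and 1.05 times as high in HH13. The HH10 ratio is uncorrected as well.

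VLDLR ran the other way. VLDLR (ENSGALG00000010166, chromosome Z at 26415210 to 26430542) had 71.1 FPKM at HH10, 74.2 at HH11, 61.8 at HH12 and 16.3 at HH13. The first 3 libraries lay close together and HH13 was the low one. The row shares its locus with an unnamed row that had at most 0.207 FPKM. VLDLR had 1.16 times the FPKM of LRP2 in HH10, 3.59 times in HH11, 1.34 times in HH12 and 0.155 times in HH13. It was the highest of the 7 genes in HH10, HH11 and HH12, and LRP8 alone was below it in HH13. The HH10 value and the first place in HH10 are without correction for the higher level of Z genes in that library. The lead of 1.16 times over LRP2 is a smaller step than the Z median of -0.51 log2 units in HH11 against HH10. With that median taken off VLDLR, LRP2 would be the highest of the 7 in HH10.

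LRP8 was the lowest of the 7 in HH10, HH12 and HH13. Like VLDLR it was highest in HH11 and lowest in HH13. In both, HH11 was close to HH10, with log2 differences of 0.06 for VLDLR, without correction for Z genes, and 0.05 for LRP8. LRP8 (ENSGALG00000010692, chromosome 8 at 23561280 to 23710577) had 4.78, 4.99, 3.84 and 2.004 FPKM in stage order. VLDLR had 14.9, 14.9, 16.1 and 8.12 times its FPKM. LRP1 (ENSGALG00000027308) lies on the unplaced scaffold JH376175.1 at 13 to 25944, so its row covers only what that scaffold holds. LRP1 had 20.3, 33.0, 18.6 and 26.3 FPKM in stage order, highest in HH11 and lowest in HH12, a 1.77-fold span that was the narrowest of the 7. Of all genes, 5.62% were also highest in HH11 and lowest in HH12.

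**Figure D1:**
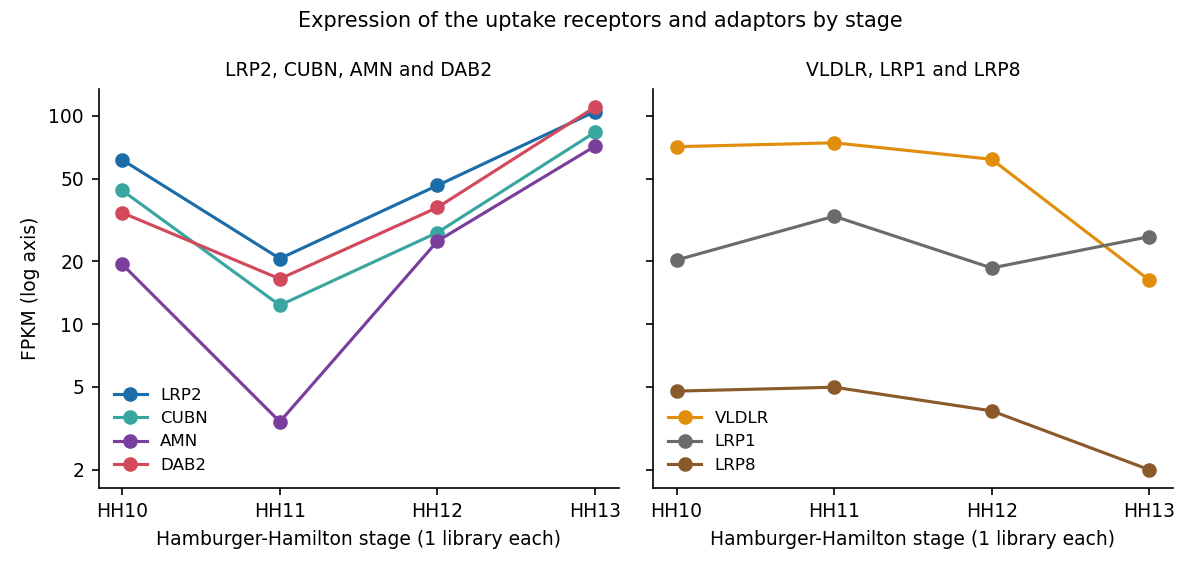
FPKM (log axis) of the 7 genes in the 4 libraries, 1 point per library, with LRP2, CUBN, AMN and DAB2 in the left panel and VLDLR, LRP1 and LRP8 in the right. The 4 genes on the left have their low point in HH11 and their high point in HH13, where VLDLR is at 16.3 FPKM and LRP8 at 2.004.

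The make-up of the receptor transcripts differed between the stages. Over the 5 receptors LRP2, CUBN, VLDLR, LRP1 and LRP8 the summed level was 201.4 FPKM at HH10, 145.1 at HH11, 158.1 at HH12 and 232.6 at HH13. LRP2 and CUBN together made up 52.3%, 22.7%, 46.7% and 80.8% of it in stage order. VLDLR made up 35.3%, 51.1%, 39.1% and 6.99%. VLDLR thus held the largest share of the 5 in HH10, HH11 and HH12, and the second smallest in HH13. The HH10 shares are not corrected for the higher level of Z genes in that library, where LRP2 held 30.5%. With the Z median of HH11 against HH10 taken off VLDLR, LRP2 would hold the largest share in HH10. LRP1 held 10.1%, 22.7%, 11.8% and 11.3%, and LRP8 at most 3.44%.

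**Figure D2:**
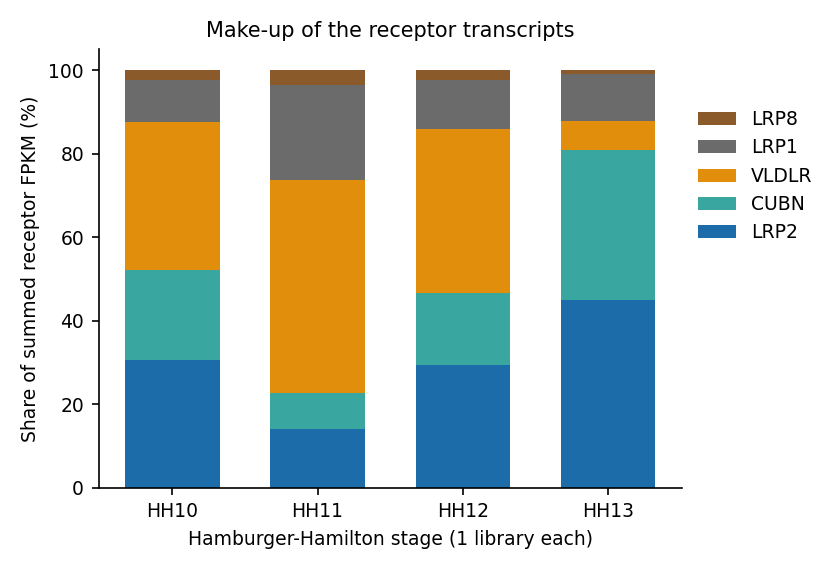
Share of each receptor in the summed FPKM of the 5 receptors (%), 1 stacked bar per library, in stage order. The LRP2 and CUBN segments together reach 80.8% in HH13 and 22.7% in HH11, and the VLDLR segment 6.99% in HH13 and 51.1% in HH11.

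Differences below were taken between values of log2(FPKM + 1), a scale on which low genes appear closer than they are, and a gene is counted as higher or lower from 2-fold on. The 5 comparisons share libraries, so they are not independent of one another. In HH13 against HH10, AMN and DAB2 were higher, with log2 differences of 1.83 and 1.66, and VLDLR was lower at -2.06. So 2 of 7 genes were higher, where 9.39% of all genes tested were, and 1 was lower, where 4.06% were. LRP2 at 0.76, CUBN at 0.91 and LRP8 at -0.94 came short of 2-fold, and LRP1 had 0.36. At the same total FPKM in every library CUBN had 1.01, which made 3 of 7 higher, and with a pseudocount of 0.1 FPKM LRP8 had -1.21. Among the 11773 genes, 91 had a more negative difference than VLDLR. With the Z median subtracted for Z genes, DAB2 had 2.13 and VLDLR -1.59. With HH10 left out and HH13 set against the mean log2 value of HH11 and HH12, 4 of 7 were higher, with LRP2 at 1.72 and CUBN at 2.11.

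In HH11 against HH10, the genes of the megalin and cubilin system were lower. AMN had a log2 difference of -2.21, CUBN of -1.75, LRP2 of -1.53 and DAB2 of -1.01. These 4 of 7 were at least 2-fold lower and 0 were at least 2-fold higher. Of all genes tested, 4.32% were lower and 2.17% higher, or 509 and 255 genes. At the same total FPKM in every library the split over all genes was 322 lower and 500 higher, and 3 of the 7 were lower. DAB2 stood at the 2-fold limit and was not past it with a pseudocount of 5 FPKM (-0.87), at the same total FPKM (-0.70) and with the Z median subtracted (-0.50). VLDLR had 0.06, or 0.57 with the Z median subtracted, LRP8 had 0.05 and LRP1 had 0.67.

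In HH12 against HH11, the same 4 genes were higher. AMN had 2.56, LRP2 1.13, CUBN 1.10 and DAB2 1.09. Of all genes tested, 4.42% were higher and 1.58% lower, or 520 and 186 genes, and 445 and 262 at the same total FPKM. At the same total FPKM CUBN had 0.98 and DAB2 0.97, which left 2 of 7 higher. VLDLR, LRP8 and LRP1 had -0.26, -0.31 and -0.79, and 0 of 7 were at least 2-fold lower.

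In HH13 against HH12, LRP2, CUBN, AMN and DAB2 were higher again, and VLDLR was lower. DAB2 had 1.57, CUBN 1.56, AMN 1.48 and LRP2 1.16, against 8.53% of all genes at least 2-fold higher. VLDLR had -1.86, against 2.95% of all genes at least 2-fold lower, and 94 genes had a more negative difference. LRP8 had -0.69 and LRP1 0.48. LRP2, CUBN, AMN and DAB2 were past 2-fold upward at both of the last steps, as were 2.07% of all genes tested. At the same total FPKM, or with a pseudocount of 5 FPKM, CUBN and DAB2 were short of 2-fold in HH12 against HH11. Lowest in HH11 and highest in HH13 were the same 4 of 7 genes and 17.9% of all genes. Highest in HH11 and lowest in HH13 were VLDLR and LRP8, and 17.4% of all genes.

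LRP2, CUBN, AMN, DAB2, VLDLR and LRP8 had their widest differences in HH13 against HH11. AMN had 4.04, a 16.5-fold difference, and 55 of the 11773 genes had a greater one. DAB2 had 2.67, CUBN 2.66 and LRP2 2.29, so 4 of 7 were higher, against 13.1% of all genes. VLDLR had -2.12 and was 1 of 7 that were lower, against 5.39%. LRP8 had -0.99, just short of 2-fold, and was past it at the same total FPKM (-1.17) and with a pseudocount of 0.1 FPKM (-1.27). Over all genes 1543 were higher and 634 lower, and 1317 and 1008 at the same total FPKM.

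**Figure D3:**
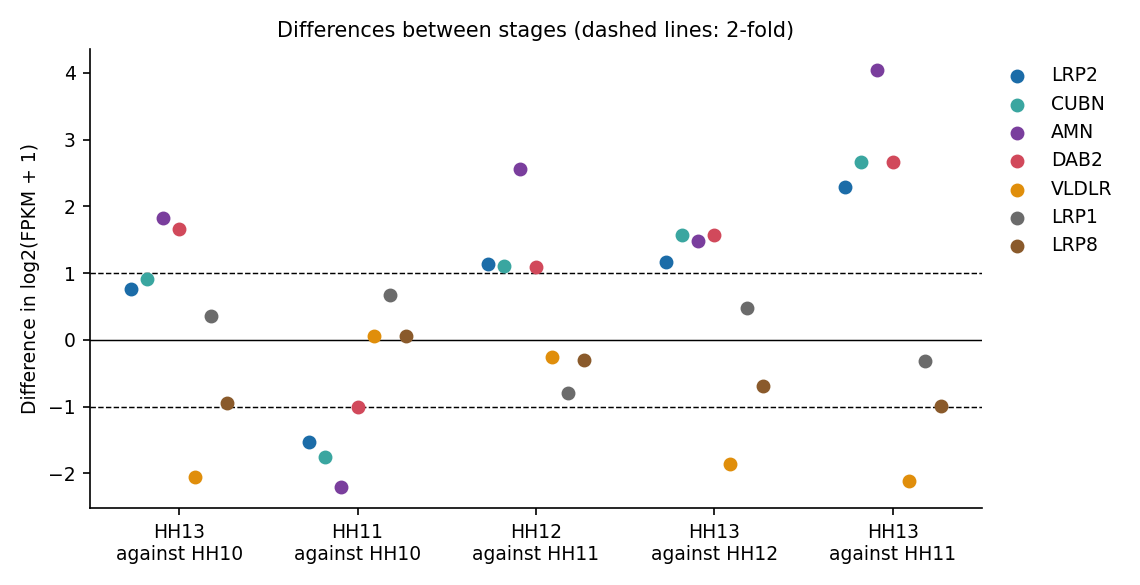
Difference in log2(FPKM + 1) of the 7 genes (points) in 5 comparisons, first stage minus second, with 1 library per stage and dashed lines at 2-fold. AMN has the most positive value in 3 of the 5 comparisons and the most negative one in HH11 against HH10, and VLDLR lies at -2.06, -1.86 and -2.12 in the comparisons of HH13.

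The authors' deposited table gives a p-value and a q-value for each pair of stages, which rest on no replicate of a stage. In the authors' deposited table CUBN and DAB2 had q = 0.0109, AMN q = 0.0196 and VLDLR q = 0.0270 for HH13 against HH11. Those were 4 of 7 genes with q under 0.05 in that pair, against 1.68% of 11806 rows with at least 1 FPKM, and LRP2 had q = 0.0940. For HH13 against HH10 the authors' deposited table gave VLDLR q = 0.0270, AMN q = 0.0910 and DAB2 q = 0.121, and 0.940% of rows were under 0.05. VLDLR and DAB2 lie on chromosome Z, whose genes were higher in the HH10 library. With the Z median subtracted the VLDLR difference in this pair was -1.59 rather than -2.06, and no q-value was computed for it. For HH13 against HH12 it gave VLDLR q = 0.0502, and 0.483% of rows were under 0.05. For HH11 against HH10 the lowest q of the 7 in the authors' deposited table was that of CUBN, 0.0874, with 0.356% of rows under 0.05. For HH12 against HH11 the lowest was that of AMN, 0.166, with 0.178% of rows under 0.05.

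A straight line over the 4 stages, fitted with limma across all genes, has 2 residual degrees of freedom. VLDLR had a slope of -0.64 log2 units per stage (standard error 0.213, limma adjusted p = 0.523). DAB2 had 0.61 (standard error 0.277, limma adjusted p = 0.534) and AMN 0.81 (standard error 0.457, limma adjusted p = 0.565). Without the HH13 library VLDLR had -0.10, DAB2 0.04 and AMN 0.18. LRP2, CUBN, LRP1 and LRP8 had slopes of 0.34, 0.38, 0.03 and -0.31. The limma fit with Benjamini-Hochberg adjustment called 0 of 11773 genes, 0.0%, and 9.44% passed 0.05 before adjustment, VLDLR alone among the 7. The slopes of VLDLR and DAB2 over the 4 stages were not corrected for the higher level of Z genes in HH10. The line was also fitted with each library left out in turn. Without HH11, without HH12 or without HH13 no gene was called, as in the fit over all 4 stages. Without the HH10 library the line runs over HH11, HH12 and HH13 alone, with 1 library for each, and 7.17% of all genes were called. There LRP2 had a slope of 1.14 (limma adjusted p = 0.00778), CUBN 1.33 (0.00686), AMN 2.02 (0.00494), DAB2 1.33 (0.00670) and VLDLR -1.06 (0.0478). Those calls were 4 of 7 with a positive slope, against 5.52% of genes, and 1 of 7 with a negative slope, against 1.65%. LRP8 had -0.50 (limma adjusted p = 0.168) and LRP1 -0.16 (0.687). For these p-values limma moderates each gene's departure from the line over 3 single libraries with the departures of all genes. No replicate of a stage enters that error. The line over 3 libraries has fewer residual degrees of freedom than the 2 of the line over 4. It also leaves out the library in which LRP2, CUBN, AMN and DAB2 were higher than in HH11. Among the fits with 1 library left out, only the one without HH10 gave calls, so these calls do not establish a stage trend for the 7 genes.

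Markers of several cell types were, like LRP2, CUBN, AMN and DAB2, lowest in HH11 and highest in HH13. For yolk sac endoderm, the summed level of the 10 measured markers was 13910 FPKM at HH10, 6160 at HH11, 17990 at HH12 and 50320 at HH13. APOA1 and TTR, with 21727 and 21632 FPKM in HH13, made up most of that sum. The markers' median log2 difference was 1.80 in HH13 against HH10, -0.85 in HH11 against HH10, 1.34 in HH12 against HH11 and 1.56 in HH13 against HH12. LRP2 and CUBN lay below that median in HH13 against HH10, and AMN, at 1.83, stood close to it. Of the 10, 8 were lowest in HH11 and highest in HH13, against 17.9% of all genes. The same low and high points were those of 9 of 10 endothelial, 8 of 8 erythroid and 4 of 4 mesothelial and mesodermal markers. They were also those of 3 of 4 mural, 2 of 5 macrophage, 1 of 7 surface epithelium and 1 of 6 neural markers. These counts are of markers that passed the filter. The endothelial median was 1.19 in HH13 against HH10, -0.69 in HH11 against HH10, 0.78 in HH12 against HH11 and 1.3 in HH13 against HH12. GATA6, a transcription factor of endoderm, was not among the 8 endoderm markers. GATA6 had 83.1, 99.4, 78.2 and 66.4 FPKM in stage order, highest in HH11 and lowest in HH13 like VLDLR. Markers of other cell types differed between the libraries as well. The 10 measured endothelial markers summed to 82.6, 40.9, 70.4 and 208.0 FPKM and the 8 erythroid markers to 1430, 280.5, 13400 and 29790 FPKM in stage order. The 5 macrophage markers summed to 5.88, 5.25, 12.3 and 22.8 FPKM, and the 5 mural markers to 10.39, 10.02, 24.2 and 86.6. The 6 mesothelial and mesodermal markers summed to 120.8, 76.0, 116.3 and 435.0. In HH13, TAGLN alone had 57.3 FPKM of the mural sum and HAND1 396.3 of the mesothelial and mesodermal one. The 8 surface epithelium markers, of which KRT7 was listed at 0 in HH11, HH12 and HH13, summed to 3136, 5721, 5513 and 5032 FPKM, lowest in HH10. The 7 neural markers summed to 54.9, 34.1, 31.6 and 77.3 FPKM, with SOX2 and STMN2 listed at 0 in HH12 and OTX2 and STMN2 in HH13. TUBB3 alone had 63.9 FPKM of the HH13 sum. In HH13 against HH10, 1 of the 6 neural markers past the filter was higher and 3 were lower, against 9.39% and 4.06% of all genes. Their median log2 difference was -0.86. In bulk tissue fewer cells of a type and less RNA per cell cannot be told apart, and the part of the tissue's make-up in these differences was not tested.

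The course of each gene was set beside those of 7634 other named genes with a mean of at least 5 FPKM, by the Euclidean distance between log2(FPKM + 1) values centred on each gene's own mean. With only 4 libraries, many genes lie close to any course, so the distances describe these libraries. The courses of Z genes, among them DAB2, VLDLR and the ABCA1 named below, were not corrected for the higher level of Z genes in HH10. LRP2 and CUBN were 0.331 log2 units apart, and 18 of the 7634 genes were closer to LRP2 than CUBN was. DAB2 was 0.635 from LRP2 and 0.639 from CUBN, with 128 genes closer to LRP2 and 78 closer to CUBN than DAB2 was. AMN stood further off, at 1.36 from LRP2, 1.24 from CUBN and 1.18 from DAB2. Closer than AMN were 1120 of the 7634 genes to LRP2, 463 to CUBN and 585 to DAB2. Seen from AMN, 180 genes were closer than LRP2, 144 closer than CUBN and 127 closer than DAB2. VLDLR and LRP8 were 0.989 apart, with 206 of the 7634 genes closer to VLDLR and 5286 closer to LRP8 than they were to each other, and LRP1 was 1.02 from LRP8. VLDLR was 3.20 to 4.41 from LRP2, CUBN, AMN and DAB2.

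The closest genes to LRP2 were SNX20, a sorting nexin, FADS2, a fatty acid desaturase, and CAPN5, a calpain protease, at 0.102, 0.180 and 0.190. FADS2 had 66.3, 20.4, 42.1 and 99.1 FPKM in stage order, close to LRP2 in level as well. The closest to CUBN were APOH, a plasma apolipoprotein, ABCA1, a cholesterol exporter, and the endothelial cadherin gene CDH5, at 0.109, 0.212 and 0.260. GAMT, an enzyme of creatine synthesis, IDO2, an enzyme of tryptophan breakdown, and APOB, the core protein of very low density lipoprotein, were closest to AMN, at 0.199, 0.277 and 0.304. APOB had 106.4, 19.3, 108.8 and 396.3 FPKM. SCARB1, a receptor for high density lipoprotein, was closest to DAB2 at 0.0993, ahead of the Golgi mannosidase gene MAN1A1 at 0.130 and the cadherin gene CDH11 at 0.133.

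Other genes were closest to the remaining receptors. ATP13A4, a P-type ATPase, FSCN2, a fascin that bundles actin, and AKAP12, a scaffold protein of protein kinase A, were closest to VLDLR, at 0.214, 0.222 and 0.248. AKAP12 had 109.3, 138.7, 92.5 and 26.3 FPKM in stage order. PTK2, the focal adhesion kinase, ASXL2 and IL17RC were closest to LRP1, at 0.0950, 0.120 and 0.174. The closest to LRP8 were CCND1 (cyclin D1), WDR77 and NUFIP1, at 0.0509, 0.0685 and 0.0708. CCND1 had 33.3, 35.1, 26.9 and 16.98 FPKM.

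**Figure D4:**
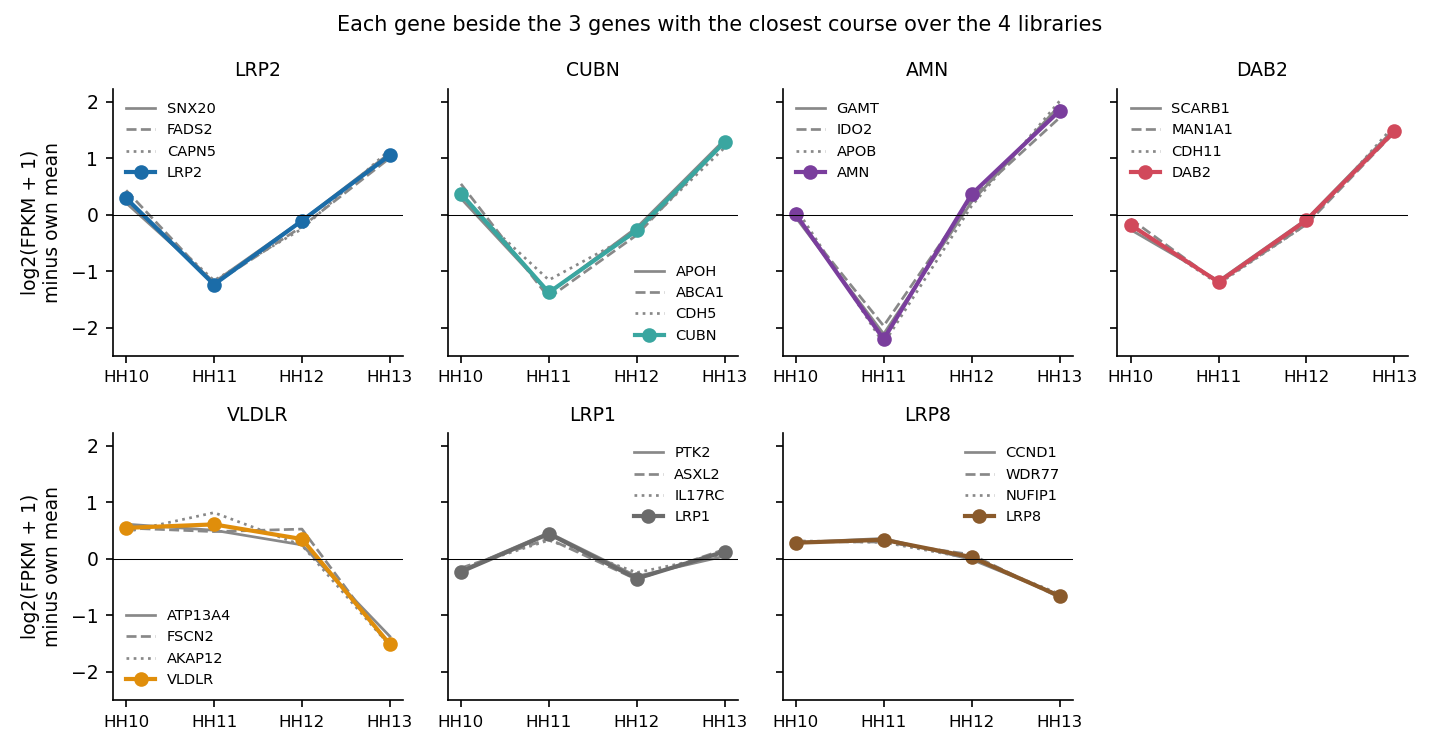
log2(FPKM + 1) minus the gene's own mean over the 4 libraries, for each of the 7 genes (coloured, with points) and the 3 named genes with the smallest distance to it (grey lines). The distances run from 0.0509 between LRP8 and CCND1 to 0.304 between AMN and APOB.

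Genes around these receptors were described by list for HH13 against HH10, where the median of all genes tested was 0.0, with 9.39% of them at least 2-fold higher and 4.06% lower. Of the 9 of 10 measured relatives that passed the filter, 0 were 2-fold apart in log2(FPKM + 1), with a median of -0.10. LDLRAD3, the relative with the highest mean, had 23.8, 31.6, 18.6 and 21.0 FPKM in stage order. The largest differences were those of LRP3 at 0.87 and LRP12 at -0.49. LRP3 had 8.947 FPKM in HH13 and 4.451 FPKM in HH10, just past 2-fold in FPKM itself. In HH13 against HH12, LRP11 was the 1 relative past 2-fold, at 1.46, where 8.53% of all genes were higher. LRP1B, a large relative of LRP1, was at most 0.16 FPKM in any library. Of the 10 measured chaperones and other adaptors 0 were 2-fold apart, with a median of -0.04. LRPAP1, the chaperone that keeps ligands off these receptors in the endoplasmic reticulum, had the largest difference, 0.76, with 233.4 FPKM in HH13 and 137.4 FPKM in HH10. ANKRA2, an ankyrin protein that binds the LRP2 tail, lies on chromosome Z and had -0.53, where the median of Z genes was -0.47. DAB1, the relative of DAB2 in reelin signalling, had 3.82 FPKM in HH13 and 4.03 FPKM in HH10.

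Of 25 measured genes of the clathrin coat 0 were 2-fold apart in log2(FPKM + 1) in HH13 against HH10, with a median of 0.03. HSPA8, the chaperone that takes the coat apart, had the highest mean, with 845.8, 1199.9, 1115.5 and 671.6 FPKM in stage order. DNAJC6, auxilin, had the largest difference at 0.81 and ITSN1, intersectin, the most negative at -0.44. In HH11 against HH10, DNAJC6 was the 1 gene of the 25 past 2-fold, at -1.25, where 4.32% of all genes were lower. It was also the 1 past 2-fold in HH12 against HH11, at 1.15, where 4.42% of all genes were higher. HIP1 was the 1 past 2-fold in HH13 against HH12, at 1.19, where 8.53% were higher. DNAJC6 was low throughout, with 2.49, 0.462, 2.24 and 5.13 FPKM in stage order. In FPKM itself DNAJC6 was thus past 2-fold higher in HH13 than in HH10. CLTA, a clathrin light chain gene on chromosome Z, had 149.3 FPKM in HH11 and 298.0 FPKM in HH10. Of 23 measured genes of endosomes and recycling 1 was higher in HH13 than in HH10, EHD4 at 1.41, with a median of 0.08. RAB11A, a regulator of recycling endosomes, had 111.3, 77.7, 115.8 and 178.1 FPKM, and RAB11FIP2 the most negative difference at -0.31. CLCN5, an endosomal chloride and proton exchanger, had 43.8, 21.5, 37.8 and 46.6 FPKM, also lowest in HH11 and highest in HH13. Those low and high points were shared by 5 of the 23 endosome genes and 7 of the 25 coat genes. Highest in HH11 and lowest in HH13 were as many, 5 and 7. Of all genes, 17.9% had the first course and 17.4% the second. In HH13 against HH11, 3 of the 25 coat genes were higher, CLTA at 1.05, HIP1 at 1.13 and DNAJC6 at 2.07, as were 2 of the 23 endosome genes, RAB11A at 1.19 and CLCN5 at 1.08. In that comparison 0 of either list were lower, and 13.1% of all genes were higher and 5.39% lower.

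Other uptake receptors ranged from -2.04 to 2.06 in HH13 against HH10, where the 7 genes ranged from -2.06 to 1.83. Of 12 measured, 6 were higher and 3 lower in HH13 than in HH10, against 9.39% and 4.06% of all genes, with a median of 0.95. Higher were SCARB1, which also had the highest mean, the scavenger receptors CD36, STAB1 and STAB2, the transferrin receptor TFRC, and PLA2R1. SCARB1 had 320.3 FPKM in HH13 and 92.4 FPKM in HH10, and CD36 had 5.53 FPKM in HH13 and 0.568 FPKM in HH10. The 3 lower genes were STRA6, the receptor that takes up retinol, FOLR1, a folate receptor, and CD320, the transcobalamin receptor. STRA6 had 94.8, 164.6, 114.4 and 22.2 FPKM in stage order, FOLR1 4.76, 7.08, 4.27 and 0.822, and CD320 17.4, 30.4, 8.08 and 6.89. All 3, picked here for being lower in HH13, were highest in HH11 and lowest in HH13, as VLDLR and LRP8 were. LRP8, though, was only 0.05 log2 units higher in HH11 than in HH10, and VLDLR 0.06 without correction for Z genes. With the Z median subtracted VLDLR had 0.57, where FOLR1 had 0.49, CD320 0.77 and STRA6 0.79. Highest in HH11 and lowest in HH13 were 4 of the 12 and 17.4% of all genes. Lowest in HH11 and highest in HH13 were 5 of the 12 and 17.9% of all genes.

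Transcripts of ligands and cargo proteins, many of them also secreted by the yolk sac endoderm itself, were next. Of the 13 of 15 measured genes that passed the filter 7 were higher in HH13 than in HH10 and 0 lower, against 9.39% and 4.06% of all genes, with a median of 1.04. Of the 13, 10 were lowest in HH11 and highest in HH13, against 17.9% of all genes. APOA1, APOB, TTR and RBP4 are also among the yolk sac endoderm markers, and LRPAP1 is also on the chaperone list. The counts of these lists therefore overlap. APOA1, the main protein of high density lipoprotein, had 7827, 3412, 8331 and 21727 FPKM in stage order. TTR, a carrier of thyroid hormone, had the largest difference at 2.58, GC, the vitamin D binding protein and a ligand of megalin and cubilin in mammals, had 89.7 FPKM in HH13 and 18.7 FPKM in HH10, and TF, transferrin, had 2043 FPKM in HH13 and 489.1 FPKM in HH10. LPL, lipoprotein lipase, had 64.3 FPKM in HH13 and 51.2 FPKM in HH10. The yolk precursor genes VTG1 and VTG2, which the hen's liver expresses, had at most 0.0522 and 0.496 FPKM in any library. RELN, the reelin gene, had 2.05, 2.39, 1.55 and 1.40 FPKM in stage order.

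**Figure D5:**
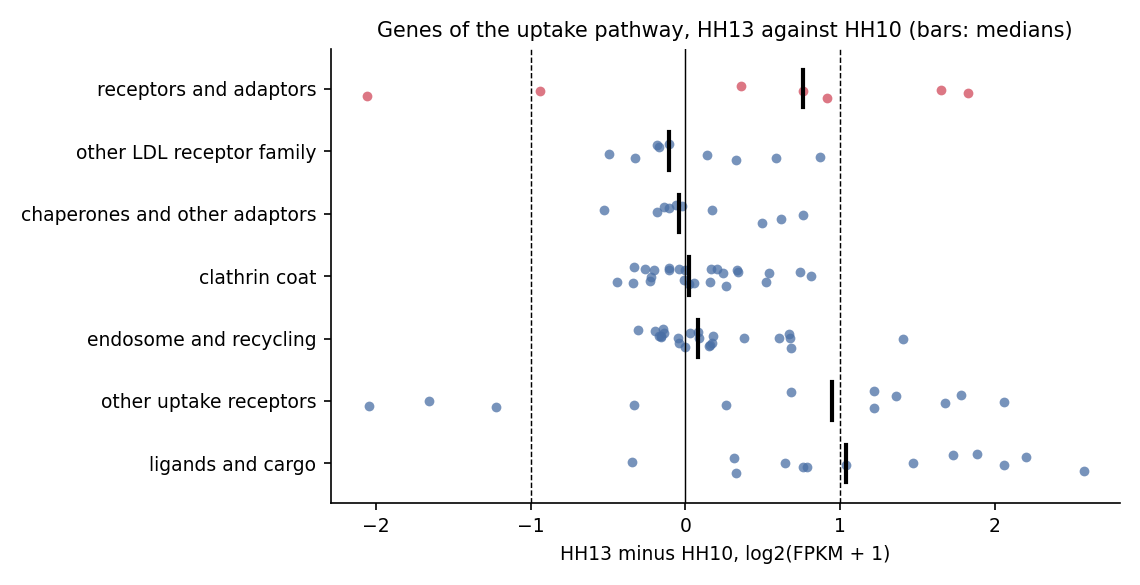
Difference in log2(FPKM + 1) of HH13 against HH10 for the genes past the filter in 7 groups (points, 1 gene each, shifted up or down at random for visibility), with vertical bars at each group's median and dashed lines at 2-fold. On this scale all clathrin coat genes lie within 2-fold, with a median of 0.03. The receptors and adaptors reach from -2.06 to 1.83 and the other uptake receptors from -2.04 to 2.06.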

How the data were processed

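RNA sequencing libraries from the area vasculosa at 4 stages were used, 1 per stage. The tools named per the submitters' processing notes are TopHat2 2.0.8, Cufflinks and Cuffdiff, and the build is galGal4. The deposited table holds FPKM per gene, and p-values and q-values of 6 pairs of stages, per the file headers. The sources used here do not state the library scaling, and a Cufflinks locus can hold several genes. Starts are printed 1 higher than deposited.

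Rows of 1 symbol were summed, and older symbols were matched through RefSeq synonyms of a single gene (GRCg7b, names only). Genes with at least 1 FPKM in 1 library were kept, as log2(FPKM + 1). Since the table holds no counts, a count test was not used. With 1 library per stage, differences were described from 2-fold on. For the trend, limma 3.58.1 ran in R 4.3.3 (eBayes with trend, two-sided, Benjamini-Hochberg over all genes, threshold 0.05). The fit was also tested on simulated data, but no outcome is given here, so no statement about the members rests on it. Python 3.11.15 and pandas 2.3.3 did the rest.

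The members, the lists and the tests were chosen with earlier results of these data known. Named genes were the members, the 3 closest genes to each, and from each pathway list the highest mean and the largest differences up and down with at least 5 FPKM in 1 library. Further list genes were chosen after their values were seen. A marker gene on 1 list is not reported here by name.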

Additional observations from a re-analysis of the deposited data

How the results depend on the processing

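With 1 library per stage, no alternative can stand in for replicates, and the depth is unknown. No paired analysis was possible because each stage has a single library. Setting the libraries to the same total FPKM moved the median of all genes by 0.29 in HH11 against HH10, by -0.11 in HH12 against HH11 and by -0.20 in HH13 against HH11. The cause of the changes below was not tested.

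Among the 7 genes, 2 rather than 1 were lower in HH13 with a pseudocount of 0.1 FPKM, both against HH10 and against HH11, and against HH11 also at the same total FPKM, each time by adding LRP8. Of the 4 genes higher in HH12 than in HH11, 2 were past 2-fold with a pseudocount of 5 FPKM and 2 at the same total FPKM. Without HH10, in alternatives chosen after the data were seen, 4 rather than 2 were higher in HH13, and 1 rather than 0 was higher in HH11 against the mean of HH12 and HH13, VLDLR at 1.19.

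Over all genes, a pseudocount of 5 FPKM gave 541 higher and 207 lower genes in HH13 against HH10, 109 and 194 in HH11 against HH10, 228 and 54 in HH12 against HH11, 403 and 172 in HH13 against HH12, and 788 and 326 in HH13 against HH11. The main counts were 1106 and 478, 255 and 509, 520 and 186, 1004 and 347, and 1543 and 634. A pseudocount of 0.1 FPKM gave 426 higher and 1025 lower in HH11 against HH10, 893 and 407 in HH12 against HH11, and 1542 higher in HH13 against HH12. The same total FPKM gave 500 higher and 322 lower in HH11 against HH10, and 1008 lower in HH13 against HH11. Without HH10, 944 were lower in HH11 than in the mean of HH12 and HH13.

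The stage trend called 0 genes, 1 gene at the same total FPKM, 2 genes for the mean of HH12 and HH13 minus that of HH10 and HH11, and 0 to 844 genes with 1 library left out, 844 being without HH10. The LRP1 slope turned to -0.22 for the contrast of means, -0.16 without HH10 and -0.06 without HH13, and without HH13 the slopes of LRP2 and CUBN turned to -0.20 and -0.33. With each library left out in turn, the slope ran from -0.20 to 1.14 for LRP2, from -0.33 to 1.33 for CUBN, from -0.157 to 0.0934 for LRP1, from 0.18 to 2.02 for AMN, from 0.04 to 1.33 for DAB2 and from -1.06 to -0.10 for VLDLR, the smallest size of the last 3 being without HH13.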
